A study of Homo sapiens with 6 samples.

Results

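The EGF receptor family consists of 4 cell-surface receptors, EGFR, ERBB2, ERBB3 and ERBB4, and is described here with 6 genes for growth factors that bind them, AREG, EREG, HBEGF, TGFA, BTC and NRG1. The members were all probe sets that the platform annotation gives to 1 of these 10 genes. There were 38 such probe sets of 54675 on the array, 21 for the receptors and 17 for the ligands, and they covered 9 of the 10 genes. AREG (amphiregulin) had no probe set under that rule and was not analysed here. Expression was measured in IGROV1, an established human ovarian carcinoma cell line grown in medium with serum. Side population (SP) cells, which keep little of the DNA dye Hoechst 33342 because membrane pumps export it, were compared with non-SP cells sorted outside that gate, with 3 samples of each and 1 array per sample. Both groups were stained and sorted in the same way, had no other treatment, and their RNA was amplified from very small amounts. The labels name biological replicates without mention of separate cultures, so the p-values rest on a spread between samples that may be partly technical.

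Ligands of this family are made as membrane-anchored precursors and cut free by metalloproteases. EGFR binds EGF-type ligands such as TGFA and AREG, ERBB3 binds neuregulins, and BTC, HBEGF and EREG bind both EGFR and ERBB4. Bound receptors pair with each other. ERBB2 has no known ligand and acts as a preferred partner, and ERBB3 has little kinase activity of its own. The pairs switch on the RAS-ERK and PI3K-AKT pathways, which in turn induce inhibitors that damp the receptors. In ovarian carcinoma the receptors have been studied as drug targets.

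Values are log2 expression per probe set, so that a difference of 1 is a doubling. The level of ABCB1, which encodes an exporter of Hoechst 33342, was 8.61, 10.16 and 10.22 in SP replicates 1, 2 and 3, against 4.26, 5.81 and 4.59 in non-SP replicates 1, 2 and 3. These groups did not overlap, with a difference of 4.78 (SE 0.56, limma adjusted p = 0.12). ABCG2, which encodes another exporter of the dye, read 4.03, 5.60 and 4.53 in SP replicates 1, 2 and 3, against 4.73, 5.37 and 4.59 in non-SP replicates 1, 2 and 3, and its groups overlapped (difference -0.18, SE 0.42). All 10 of 10 epithelial markers were above the highest negative control probe set on all 6 arrays, with EPCAM the brightest at 12.00 to 12.08 in SP and 12.12 to 12.29 in non-SP samples. The largest differences among the 10 were 0.79 for KRT7, 0.79 for CDH1 and -0.71 for KRT8 (limma adjusted p = 0.451, 0.709 and 0.611). The summed linear signal of the 10, which hides such opposite shifts, was 14963 to 16767 in SP and 13192 to 16489 in non-SP samples. That of 4 measured leukocyte markers was 68 to 74 and 66 to 78, that of 4 endothelial markers 181 to 203 and 196 to 224, and that of 5 fibroblast markers 201 to 208 and 215 to 229, in the same order. Above the highest negative control on all 6 arrays were 2 of 4 leukocyte, 3 of 4 endothelial and 4 of 5 fibroblast markers, with levels of up to 5.56 (CD14), 6.97 (CDH5) and 7.15 (COL1A1). CD3E and LUM were above it on none of the 6. That cut-off was low. The highest negative control read 3.169 to 3.53 over the arrays, and the lower quartile of all probe sets read 3.899 to 3.93. The part of other cell types in the results was not tested.

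The arrays also divided along a line that the groups do not explain. On the first principal component of all genes, which held 45.8% of the variance, SP replicates 2 and 3 and non-SP replicate 2 (called the second array set) lay on one side and SP replicate 1 and non-SP replicates 1 and 3 (the first array set) on the other. These sets were read from the values and are not groups of the study, so no test is given between them. The ACTB 3' minus 5' control signal, a measure of RNA and amplification quality, was 2.46 to 2.55 in the second set and 2.02 to 2.29 in the first. The same measure for GAPDH did not divide the sets, with 0.035, 0.362 and 0.17 in the second and 0.143, 0.148 and 0.042 in the first. The part of the ACTB signal in the patterns below was not tested apart from its use as a covariate.

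The arrays showed patterns for EGFR and BTC that ran together and for ERBB2 and ERBB3 that ran the opposite way. ERBB4 was the receptor gene with separated groups. No upstream sequence was available here for ERBB3. The 250 bases upstream of the RefSeq transcription start of EGFR, BTC, ERBB2 and ERBB4 are shown because of these patterns (RefSeq, GRCh38.p14, 5′ to 3′). They lie at chr7:55018767-55019016 (plus strand), chr4:74794524-74794773 (minus strand), chr17:39687844-39688093 (plus strand) and chr2:212538803-212539052 (minus strand). The set of RefSeq starts used here holds 2 for EGFR, of which the first is shown, and 1 for each of the others. Further starts of these genes were not examined. Motif letters were searched on both strands, and capitals mark each match. The motifs were the TATA box (TATAAA), the GC box (GGGCGG), the CCAAT box and the cyclic AMP response element (TGACGTCA). A looser form of the binding element of AP-1 factors, TGANTCA with any base at N, was searched as well. No marked matches overlap.
EGFR: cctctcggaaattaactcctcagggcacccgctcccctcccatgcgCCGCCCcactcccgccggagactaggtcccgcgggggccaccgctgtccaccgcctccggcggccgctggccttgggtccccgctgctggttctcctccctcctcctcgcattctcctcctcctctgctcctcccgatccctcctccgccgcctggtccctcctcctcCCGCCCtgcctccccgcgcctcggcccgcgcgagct
BTC: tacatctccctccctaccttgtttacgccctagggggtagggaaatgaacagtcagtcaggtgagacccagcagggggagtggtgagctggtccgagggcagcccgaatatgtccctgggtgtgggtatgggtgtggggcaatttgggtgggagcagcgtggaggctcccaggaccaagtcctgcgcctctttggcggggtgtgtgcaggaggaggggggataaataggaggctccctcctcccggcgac
ERBB2: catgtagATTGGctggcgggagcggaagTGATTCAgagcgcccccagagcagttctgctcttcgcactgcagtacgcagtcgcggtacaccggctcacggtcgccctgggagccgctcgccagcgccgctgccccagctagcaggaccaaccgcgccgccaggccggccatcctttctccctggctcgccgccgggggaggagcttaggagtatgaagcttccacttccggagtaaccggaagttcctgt
ERBB4: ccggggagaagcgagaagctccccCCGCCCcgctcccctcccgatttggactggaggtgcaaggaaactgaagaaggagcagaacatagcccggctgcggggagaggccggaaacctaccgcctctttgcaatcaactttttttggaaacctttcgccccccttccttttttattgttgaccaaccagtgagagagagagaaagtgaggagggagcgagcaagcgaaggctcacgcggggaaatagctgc
The EGFR window was 73.6% G and C, the BTC window 62.0%, the ERBB2 window 65.6% and the ERBB4 window 57.2%, where the median of 35116 RefSeq windows of this length was 58.0%. The GC box matched at 2 places in the EGFR window and at 1 in the ERBB4 window, and 42.6% of all windows hold it. The ERBB2 window held 1 CCAAT match (32% of all windows) and 1 TGANTCA match with T at N (6.57% with any base there). The BTC window held none of the 5 motifs, and none of the 4 windows held TATAAA (10.7%) or TGACGTCA (1.65%). As the BTC window held no match, it could share none with EGFR. Why the values of EGFR and BTC ran together was not tested. The matches describe letters only and are not evidence of binding.

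The first question was which genes of the family differ with the ability to export the dye. No member passed: with 1 probe set per gene (the one with the highest mean), 0 of 9 member genes had an adjusted p under 0.05 (limma, Benjamini-Hochberg over 19775 genes), where 0.00506% of all genes did, and the smallest adjusted p among members was 0.659. At an unadjusted p under 0.05 there were 2 of 9, ERBB4 and ERBB3, beside 6.78% of all genes. With each probe set on its own, 0 of 38 passed over 54613 probe sets, beside 0.00183% of all, with a smallest adjusted p of 0.472. At an unadjusted p under 0.05 there were 3 of 38, beside 7.31% of all probe sets. The groups did not overlap for 1 member gene with SP higher (4.78% of all genes) and 0 with SP lower (7.1%), and for 4 probe sets with SP higher (5.59% of all) and 1 with SP lower (6.87%). The median difference was -0.01 over the 9 member genes and -0.02 over all genes tested.

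**Figure D1:**
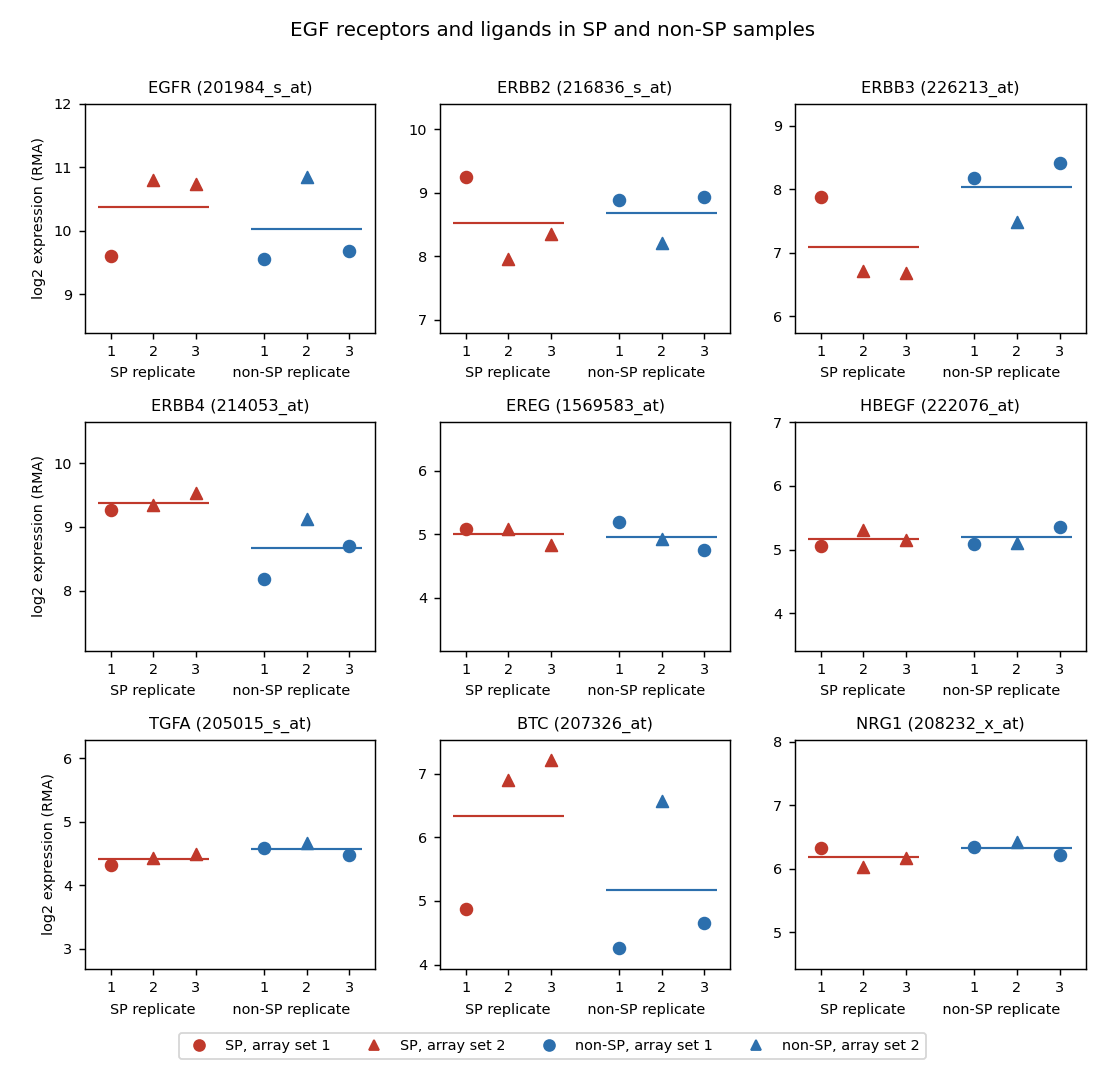
Log2 expression (vertical axes, each spanning 3.6 log2 units) of the brightest probe set of each of 9 genes, with SP replicates 1 to 3 on the left in red and non-SP replicates 1 to 3 on the right in blue. Circles are arrays of the first array set, triangles arrays of the second, and lines are group means. All 3 ERBB4 values of SP samples lie above those of non-SP samples, and the EGFR and BTC triangles lie above the circles.

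Among the receptors, EGFR, the receptor for EGF, had log2 levels of 9.61, 10.80 and 10.73 in SP replicates 1, 2 and 3, against 9.55, 10.85 and 9.68 in non-SP replicates 1, 2 and 3 (probe set 201984_s_at). The 3 high arrays were SP replicates 2 and 3 and non-SP replicate 2, and the groups overlapped. The mean was 10.38 ± 0.67 in SP and 10.03 ± 0.72 in non-SP cells (SD, n = 3 each). The difference of 0.35 (SE 0.45, limma adjusted p = 0.94) had a 95% interval of -0.73 to 1.44, or 0.603-fold to 2.71-fold. Within the first array set it was 0.00 and within the second -0.09. With the array set as a block it was -0.05 (SE 0.11), and with the ACTB control signal as a covariate 0.21 (SE 0.18). With 1 sample left out the EGFR difference ranged from 0.11 (without non-SP replicate 1) to 0.77 (without non-SP replicate 2), and each of the 6 omissions moved it by over 1.5 times.

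The 5 brightest of the 9 EGFR probe sets shared this pattern. In each of them the 3 arrays of the second set lay above the other 3, a pattern seen in 10.9% of all probe sets, and the values spanned 1.31 to 2.06 log2 units over the 6 arrays. As an example, 201983_s_at read 8.58, 10.06 and 10.21 in SP replicates 1, 2 and 3, against 8.80, 10.44 and 8.37 in non-SP replicates 1, 2 and 3. The SP minus non-SP difference of the 5 lay between 0.28 and 0.42, and with the array set as a block it was below 0 in all 5 (-0.21 to -0.05). The names of 2 of them end in x_at, which marks probes shared with other sequences.

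The other 4 EGFR probe sets were dimmer and did not follow it. Probe set 1565483_at read 3.97, 3.24 and 3.33 in SP replicates 1, 2 and 3, against 2.96, 2.95 and 3.14 in non-SP replicates 1, 2 and 3, a difference of 0.50 (SE 0.22). Probe set 1565484_x_at differed by 0.48 (SE 0.17, limma adjusted p = 0.612). The groups did not overlap in either of these, but the first was above the highest negative control on 1 of 6 arrays and the second on 0 of 6. Probe sets 211551_at and 211550_at differed by -0.07 and 0.03.

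ERBB2 (HER2), the partner receptor without a ligand, had log2 levels of 9.24, 7.96 and 8.35 in SP replicates 1, 2 and 3, against 8.89, 8.21 and 8.93 in non-SP replicates 1, 2 and 3 (216836_s_at). The low arrays were the ones on which EGFR was high, and the groups overlapped. The mean was 8.52 ± 0.65 in SP and 8.68 ± 0.40 in non-SP cells (SD, n = 3 each), a difference of -0.16 with a 95% interval of -1.02 to 0.70 (limma adjusted p = 0.971). Its sign differed between the sets, at 0.33 within the first and -0.06 within the second, and it was 0.13 (SE 0.16) with the set as a block. In all 3 ERBB2 probe sets the second array set lay below the first, as in 12% of all probe sets. The other 2 differed by -0.03 (210930_s_at) and -0.38 (234354_x_at) between SP and non-SP.

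ERBB3, the neuregulin receptor with little kinase activity, had log2 levels of 7.88, 6.72 and 6.68 in SP replicates 1, 2 and 3, against 8.18, 7.49 and 8.41 in non-SP replicates 1, 2 and 3 (226213_at). SP replicates 2 and 3 were the lowest and SP replicate 1 fell among the non-SP values. As for ERBB2, the second array set lay wholly below the first. The mean was 7.09 ± 0.68 in SP and 8.03 ± 0.48 in non-SP cells (SD, n = 3 each). The difference was -0.94 (SE 0.39, limma adjusted p = 0.732), or 0.522-fold with a 95% interval of 0.274 to 0.994. It was -0.42 within the first array set and -0.79 within the second, with every SP array below every non-SP array of its own set, as in 17.1% of all genes. With the set as a block it was -0.61 (SE 0.14, limma adjusted p = 0.23).

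The 5 ERBB3 probe sets differed in size and in sign. Probe set 215638_at read 4.04, 3.82 and 4.21 in SP replicates 1, 2 and 3, against 4.51, 4.94 and 5.45 in non-SP replicates 1, 2 and 3, so that the groups did not overlap. Its difference was -0.94 (SE 0.25), and its adjusted p of 0.472 (limma) was the smallest of the 38. The second-brightest, 202454_s_at, differed by 0.06 (SE 0.47), with non-SP replicate 2 the lowest array at 5.61. Its difference was -0.14 within the first array set, 0.98 within the second and 0.42 (SE 0.28) with the set as a block, opposite in sign to that of 226213_at in the last 2. The remaining 2 differed by -0.15 and -0.18. With the mean of all 5 probe sets the gene's difference was -0.43 (SE 0.23).

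ERBB4, a receptor for neuregulins and for BTC and HBEGF, was the member gene with separated groups. Its log2 levels were 9.26, 9.34 and 9.53 in SP replicates 1, 2 and 3, against 8.18, 9.13 and 8.70 in non-SP replicates 1, 2 and 3 (214053_at). Every SP array lay above every non-SP array, with non-SP replicate 2 the nearest to the SP values. The mean was 9.38 ± 0.14 in SP and 8.67 ± 0.47 in non-SP cells (SD, n = 3 each), and the difference of 0.71 (SE 0.24) was 1.63-fold with a 95% interval of 1.09 to 2.45 (limma adjusted p = 0.659). It was 0.82 within the first array set and 0.31 within the second. Without non-SP replicate 1, the lowest array, the ERBB4 difference was 0.46.

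The other ERBB4 probe sets gave smaller differences. Probe set 206794_at read 7.41, 8.0 and 7.34 in SP replicates 1, 2 and 3, against 6.91, 7.80 and 6.94 in non-SP replicates 1, 2 and 3, and differed by 0.37 (SE 0.30). Non-SP replicate 2 was the second-highest array there. Probe sets 233494_at and 233498_at differed by 0.05 and -0.06. With the mean of the 4 probe sets the ERBB4 difference was 0.27 (SE 0.14, limma adjusted p = 0.742).

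**Figure D2:**
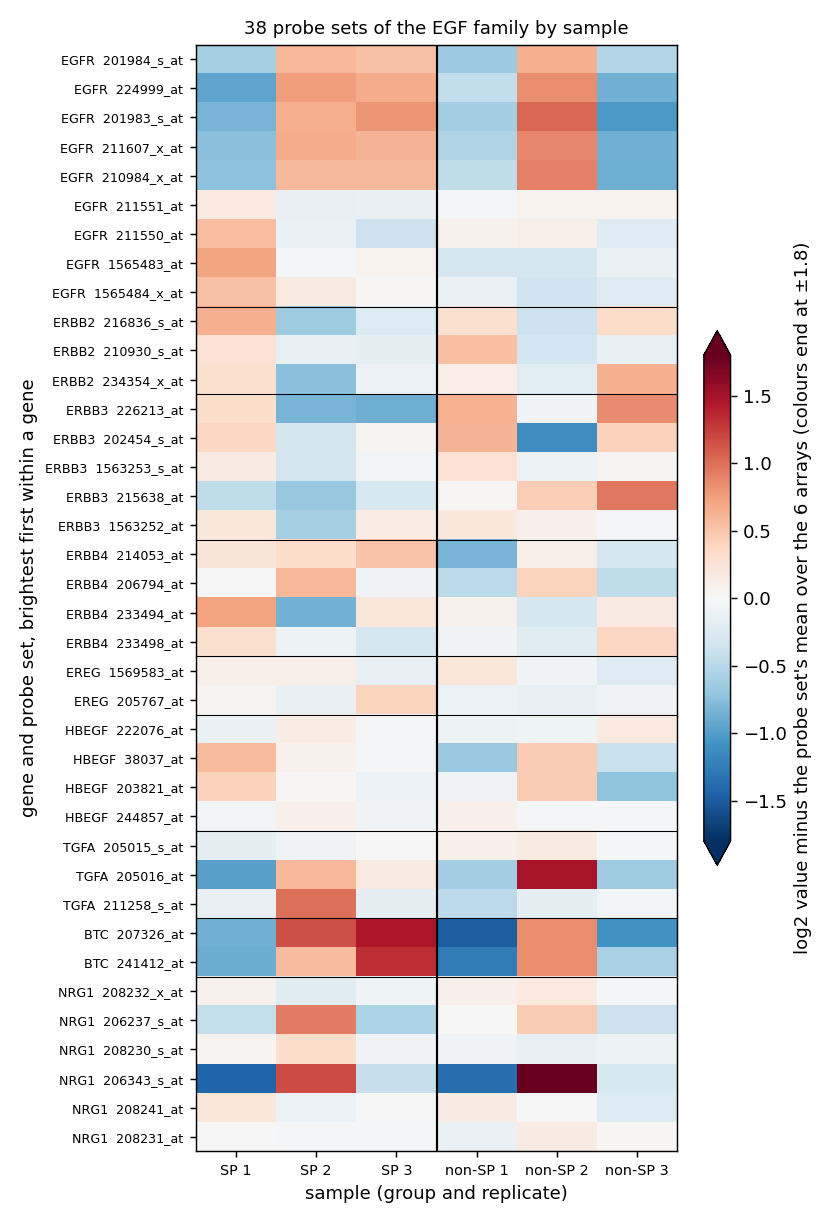
Each row is 1 of the 38 probe sets, grouped by gene with the brightest first, and each column a sample, SP on the left and non-SP on the right. Colour is the log2 value minus that probe set's mean over the 6 arrays, red above and blue below, and ends at 1.8 in either direction. The 5 brightest EGFR rows and both BTC rows are red in SP 2, SP 3 and non-SP 2, where the ERBB2 rows are mostly blue.

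Among the ligands, BTC (betacellulin), which binds EGFR and ERBB4, varied most between arrays in its brightest probe set. Its log2 levels were 4.88, 6.91 and 7.21 in SP replicates 1, 2 and 3, against 4.26, 6.58 and 4.66 in non-SP replicates 1, 2 and 3 (207326_at). The 3 high arrays were those of the second set, as for EGFR, and the groups overlapped. The mean was 6.33 ± 1.27 in SP and 5.17 ± 1.24 in non-SP cells (SD, n = 3 each), a difference of 1.17 (SE 0.80, limma adjusted p = 0.881) or 2.25-fold, with a 95% interval of 0.593 to 8.51. Omitting SP replicate 1 raised the BTC difference to 1.89 and omitting non-SP replicate 2 to 1.87, while it was 0.73 when SP replicate 3 was omitted and 0.71 when non-SP replicate 1 was.

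Within each array set the BTC values of SP samples lay above those of non-SP samples, as in 12.5% of all genes. The difference was 0.42 within the first set and 0.48 within the second, and 0.45 (SE 0.16, limma adjusted p = 0.405) with the set as a block, less than that over all 6 samples. The second probe set, 241412_at, read 3.25, 4.71 and 5.47 in SP replicates 1, 2 and 3, against 2.89, 4.98 and 3.56 in non-SP replicates 1, 2 and 3. It was above the highest negative control on 5 of 6 arrays, all but non-SP replicate 1. Its within-set differences were 0.02 and 0.11. BTC lies on chromosome 4 beyond EPGN, EREG and AREG, which follow each other there, and 2 long non-coding RNA genes separate AREG from BTC in the RefSeq annotation.

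EREG (epiregulin), from that same stretch of chromosome 4, did not show the array pattern of BTC, but its probe sets were dim. Its brighter probe set read 5.09, 5.09 and 4.83 in SP replicates 1, 2 and 3, against 5.19, 4.92 and 4.75 in non-SP replicates 1, 2 and 3, and differed by 0.05 with a 95% interval of -0.33 to 0.43. The other EREG probe set, 205767_at, lay between 1.90 and 2.45 and above the highest negative control on 0 of 6 arrays. Neither showed a separation of the groups or of the array sets. The brighter averaged 4.98, below the median of every array (5.591 to 5.641), so a small shared change may not show. The BTC probe set 241412_at was dimmer, with a mean of 4.14, and did have the array pattern. The part of the low level in the EREG values was not tested.

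HBEGF (heparin-binding EGF-like growth factor) had 4 probe sets, and the groups overlapped in all 4. The brightest, 222076_at, read 5.06, 5.31 and 5.15 in SP replicates 1, 2 and 3, against 5.09, 5.10 and 5.36 in non-SP replicates 1, 2 and 3, a difference of -0.01 with a 95% interval of -0.34 to 0.31. Probe set 38037_at read 5.32, 4.82 and 4.71 in SP replicates 1, 2 and 3, against 4.08, 5.21 and 4.34 in non-SP replicates 1, 2 and 3. Non-SP replicate 2 stood with the SP samples there, and the differences within the first and second array sets were 1.11 and -0.45. Probe set 203821_at showed 0.82 and -0.49. The choice of probe set thus decides whether HBEGF appears flat or variable.

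TGFA (transforming growth factor alpha), an EGFR ligand, read 4.32, 4.43 and 4.49 in SP replicates 1, 2 and 3, against 4.59, 4.66 and 4.48 in non-SP replicates 1, 2 and 3 (205015_s_at). SP replicate 3 lay just above non-SP replicate 3, so the groups overlapped, and the difference was -0.16 with a 95% interval of -0.44 to 0.11. The dimmer 205016_at read 2.0, 3.57 and 3.13 in SP replicates 1, 2 and 3, against 2.36, 4.46 and 2.33 in non-SP replicates 1, 2 and 3. It had the array pattern of EGFR and BTC, but was above the highest negative control on 2 of 6 arrays. The third, 211258_s_at, was above it on 1 of 6.

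NRG1 (neuregulin 1), a ligand of ERBB3 and ERBB4, had 6 probe sets, 3 of them above the highest negative control on all 6 arrays. The brightest, 208232_x_at, read 6.33, 6.03 and 6.17 in SP replicates 1, 2 and 3, against 6.34, 6.43 and 6.22 in non-SP replicates 1, 2 and 3, a difference of -0.15 with a 95% interval of -0.46 to 0.16. Probe set 206343_s_at had the widest span of all 38, 3.76 log2 units, with 3.14, 5.75 and 4.16 in SP replicates 1, 2 and 3, against 3.22, 6.90 and 4.30 in non-SP replicates 1, 2 and 3. The high arrays were replicate 2 of each group. On replicate 1 of each group 206343_s_at was below the highest negative control (above it on 4 of 6 arrays), so the low end of its span is background. That probe set differed by -0.46 (SE 1.05), and 206237_s_at, with the same 2 arrays highest, by -0.05 (SE 0.43). In 208230_s_at every SP sample was above every non-SP sample, with a difference of 0.20 (SE 0.14).

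**Figure D3:**
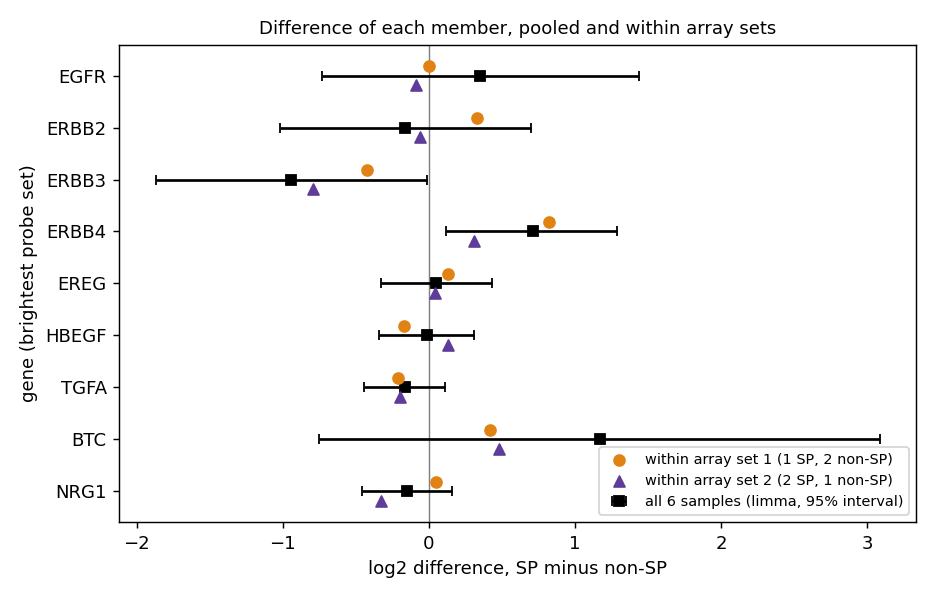
Log2 difference, SP minus non-SP, for the brightest probe set of each of 9 genes. Squares with bars are the differences over all 6 samples with limma's 95% intervals, circles the differences within the first array set and triangles those within the second. The intervals of ERBB3 (-1.87 to -0.01) and ERBB4 (0.12 to 1.29) do not reach 0 before adjustment, and the BTC interval is the widest.

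The second array set lay wholly above the first in 8 of 38 probe sets (5 of EGFR, 2 of BTC and 1 of TGFA), beside 10.9% of all probe sets. It lay wholly below in 7 (3 of ERBB2, 3 of ERBB3 and 1 of ERBB4), beside 12% of all. The array sets were read from the main axis of these same values. Setting their counts against those of the sorted groups therefore decides nothing. For the brightest probe set of each gene the second set lay wholly above in 2 of 9 and wholly below in 2 of 9, where 13.1% and 13.7% of all genes behaved so. Within both array sets SP samples were higher in 6 of 38 probe sets (13.7% of all) and lower in 6 of 38 (15.7%). With the array set as a block 0 of 9 member genes passed (0.0253% of all genes, smallest adjusted p = 0.23) and 0 of 38 probe sets (0.00916% of all, smallest adjusted p = 0.248). At an unadjusted p under 0.05 that fit held 3 of 9 member genes (ERBB3, ERBB4 and BTC), beside 10.8% of all genes.

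By root mean square distance between centred profiles over the 6 samples, the genes most like EGFR were FNDC3B (0.05 log2 units), HDAC4 (0.07) and ZNF419 (0.08). FNDC3B read 9.71, 10.85 and 10.82 in SP replicates 1, 2 and 3, against 9.57, 10.97 and 9.87 in non-SP replicates 1, 2 and 3. The genes most like ERBB4 were CXCL3, PDZD11 and UBAP2 (each 0.08), and CXCL3, a chemokine gene, read 10.32, 10.40 and 10.36 in SP replicates 1, 2 and 3, against 9.14, 10.11 and 9.68 in non-SP replicates 1, 2 and 3. These were the nearest of all genes above the median level and are given as a description.

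The rest of the pathway was described by 8 lists with 102 genes, of which 91 had a probe set with 1 symbol. None passed: 0 of 91 were higher and 0 lower at an adjusted p under 0.05, beside 0.00506% of all genes, and 7 had an unadjusted p under 0.05 (limma), beside 6.78% of all. The groups did not overlap for 8 genes with SP higher and 2 with SP lower, where 4.78% and 7.1% of all genes did so, and the median difference was 0.02. A difference above 0 was found in 48 of the 91, and in 8950 of all 19775 genes. The counts above 0 given below for each list are to be read beside that share. The largest list difference on the higher side was that of PIK3R3, a regulatory subunit of PI3-kinase, with 7.22, 6.31 and 6.30 in SP replicates 1, 2 and 3, against 5.94, 5.15 and 6.04 in non-SP replicates 1, 2 and 3. It differed by 0.90 (SE 0.34, limma adjusted p = 0.693), by 1.23 and 1.15 within the first and second array sets, and by 1.19 (SE 0.11, limma adjusted p = 0.0592) with the set as a block. The sets were read from these same values, so p-values of the block fit may be too small. Without SP replicate 1 the PIK3R3 difference was 0.60. With the mean of the gene's probe sets it was 0.72 (SE 0.49, limma adjusted p = 0.82). Every PIK3R3 value of SP samples lay above every non-SP value.

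Of 12 measured ERK-induced genes, 7 had a difference above 0 and 0 passed, with a median of 0.16. MYC, a transcription factor gene, read 10.74, 10.46 and 10.39 in SP replicates 1, 2 and 3, against 9.97, 9.64 and 10.01 in non-SP replicates 1, 2 and 3. The groups did not overlap, and the difference was 0.65 (SE 0.16, limma adjusted p = 0.497). EGR1 and FOSL1, both immediate early response factors, differed by -0.49 and -0.27, and CCND1, which encodes cyclin D1, by 0.34. On the array sets, 6 of the 12 lay wholly higher in the second set and 3 wholly lower, beside 13.1% and 13.7% of all genes. ETV5, an ETS factor named after its values were seen, read 8.93, 10.24 and 10.25 in SP replicates 1, 2 and 3, against 8.86, 10.39 and 8.63 in non-SP replicates 1, 2 and 3, high on the same arrays as EGFR, whereas EGR1 was low there.

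Of 20 measured inhibitors of the receptors and of ERK, 11 had a difference above 0 and 0 passed, with a median of 0.04. DUSP5, a nuclear ERK phosphatase, read 10.41, 10.55 and 10.47 in SP replicates 1, 2 and 3, against 9.77, 9.60 and 10.11 in non-SP replicates 1, 2 and 3. The groups did not overlap, and the difference was 0.65 (SE 0.16, limma adjusted p = 0.497). DUSP1, another MAP kinase phosphatase, differed by 0.40, SPRY1 by -0.46 and the ubiquitin ligase CBLB by 0.42. In 8 of the 20 the second array set lay wholly above the first and in 2 wholly below, beside the same 13.1% and 13.7%. ERRFI1 (MIG6), which binds and inhibits EGFR and was named after its values were seen, read 8.12, 9.24 and 9.16 in SP replicates 1, 2 and 3, against 8.35, 9.49 and 9.07 in non-SP replicates 1, 2 and 3.

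The remaining lists had medians between -0.06 and 0.07 with 0 genes past the threshold. Of 15 adaptors and proximal effectors, 8 had a difference above 0; the adaptor genes NCK1 and SHC1 differed by 0.48 and -0.43, both with groups that did not overlap, and STAT5B and GAB1 by -0.23 and 0.23. Of 8 measured RAS-ERK genes 3 were above 0, with RPS6KA3 at 0.29 (0.06 with the mean of its probe sets). MAPK3 was at -0.32, KSR1 at 0.25 (0.04 without non-SP replicate 2) and ARAF at -0.11. Of 9 measured PI3K-AKT genes 6 were above 0, with RICTOR at 0.33, PIK3R1 at 0.41 and AKT1 at -0.12 besides PIK3R3.

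Of 11 genes for ligand shedding 7 were above 0, with the metalloproteases ADAM19 and ADAM15 at 0.27 and -0.11, the protease regulator RHBDF2 at 0.27 (0.03 without SP replicate 1) and NRDC at -0.15. Of 12 genes for receptor endocytosis 4 were above 0, with HGS at -0.30, STAM at 0.52, EPN1 at -0.23 and AP2B1 at -0.14. Of the other EGF-type ligands, 4 of 5 were measured. EGF itself was above the highest negative control on 0 of 6 arrays and NRG3 on 1 of 6, so their differences of -0.31 and -0.16 are limited by background, and NRG2 and NRG4 differed by 0.07 and 0.05.

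**Figure D4:**
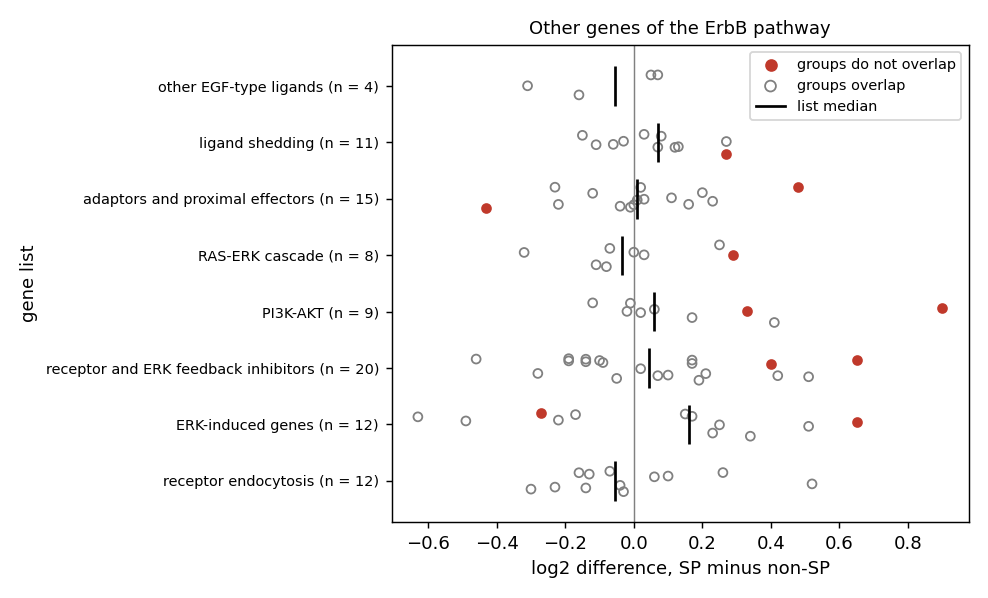
Log2 difference, SP minus non-SP, of the 91 measured genes of 8 pathway lists, 1 row per list, with the vertical position within a row spread at random. Filled points are genes whose groups do not overlap, open points those whose groups overlap, and black lines the list medians. The medians lie between -0.06 and 0.16, and the point farthest to the right is PIK3R3 at 0.90.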

How the data were processed

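Each deposited value is the log2 expression of a probe set, made by the authors with R 2.8.1, affy and RMA, per the submitters' processing notes; RMA adjusts background, gives all arrays 1 distribution and summarises probes, which hides any global change and shrinks differences near background. RNA was amplified by whole-transcriptome amplification, per the labels' protocols. Of 54675 probe sets, 62 controls were left out. Symbols came from the platform annotation (41091 probe sets with 1 symbol, 1801 with several, 11721 unnamed here), and 41037 matched RefSeq (GRCh38.p14) by Entrez ID. The probe set with the highest mean stood for a gene (19775 genes, no filter). SP minus non-SP was tested in limma 3.58.1 (R 4.3.3; lmFit and eBayes, two-sided, without a block) over all genes, and again over all 54613 probe sets, with Benjamini-Hochberg adjustment at 0.05 and 95% intervals. "Above the negative controls" means above the highest of 3 TrpnX probe sets of that array. The fit was also run on simulated data with independent noise. That simulation held no array sets, so it does not show how the fit performs with them. Python 3.11.15, pandas 2.3.3 and matplotlib 3.10.9 read tables and drew figures. Named genes were the members, up to 4 genes per pathway list by smallest unadjusted p, and the 3 genes most like EGFR and the member with the smallest p; ETV5 and ERRFI1 were added after their values were seen. Members and lists were chosen with earlier results of these data known. The number of arrays limits precision.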

Additional observations from a re-analysis of the deposited data

How the results depend on the processing

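The counts of members, member probe sets and pathway genes past the threshold stayed at 0 under all 15 alternatives of the gene fit and 14 of the probe set fit, with smallest adjusted p of 0.23, 0.248 and 0.0592, each with the array set as a block; as the sets come from the same values, p-values of that fit may be too small. With the replicate number as a block (replicate block) the counts were 0 as well, with smallest adjusted p of 0.475, 0.395 and 0.407 for members, member probe sets and pathway genes. Same-numbered deviations from group means correlated at 0.45, 0.38 and -0.21, and other-numbered ones at -0.57 to 0.4. With 3 samples a group these correlations cannot decide whether the numbers pair the samples. ERBB3, ERBB4, BTC and NRG1 kept their sign under every alternative fit, with differences between -1.33 and -0.43, between 0.27 and 0.94, between 0.45 and 1.89 and between -0.23 and -0.07. With 1 sample left out EGFR ranged from 0.11 to 0.77 and BTC from 0.71 to 1.89. Leaving out at least 1 of the samples moved the difference by over 1.5 times in 7 of 9 member genes, with ERBB3 and TGFA the exceptions, and in 22 of 32 named pathway genes, among them RHBDF2 (0.03 to 0.41), KSR1 (0.04 to 0.42), GAB1 (0.03 to 0.40) and CBLB (0.14 to 0.64).

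None of the differences whose sign turned had passed the test, and apart from the left-out samples and arrays the cause was not tested. With the array set as a block EGFR was -0.05 and ERBB2 0.13; by probe set, EGFR was -0.05, -0.21 (224999_at), -0.15 (201983_s_at), -0.14 (211607_x_at) and -0.20 (210984_x_at), ERBB2 0.13 (216836_s_at) and 0.13 (210930_s_at), and ERBB4 0.08 (233498_at). HBEGF was 0.04 with cyclic loess, 0.02 with median centring and 0.15 with the mean of probe sets, which also turned TGFA to 0.05, NRDC to 0.46 (SE 0.23) and ADAM15 to 0.05. KSR1 was 0.01 there. By probe set cyclic loess gave HBEGF 0.02 (222076_at) and 0.01 (244857_at), and the ACTB covariate gave ERBB2 0.04 (210930_s_at). Array weights gave EGFR -0.03 (211550_at), ERBB3 -0.23 (202454_s_at), ERBB4 -0.21 (233494_at), HBEGF 0.01 (244857_at), TGFA 0.36 (205016_at) and NRG1 0.24 (206237_s_at) and 0.18 (206343_s_at).

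With 1 sample left out, ERBB2 ranged from -0.52 to 0.11, EREG from -0.05 to 0.17, HBEGF from -0.08 to 0.08, NRG2 from 0.00 to 0.21, NRG4 from -0.05 to 0.11 and ARAF from -0.29 to 0.04. Besides the probe sets 216836_s_at (-0.52 to 0.11), 1569583_at (-0.05 to 0.17) and 222076_at (-0.08 to 0.08) that stand for those genes, the sign also turned for EGFR 224999_at (-0.04 to 0.87), 210984_x_at (-0.08 to 0.81) and 211550_at (-0.23 to 0.23), and for ERBB2 210930_s_at (-0.22 to 0.23). It turned for ERBB3 202454_s_at (-0.49 to 0.38) and 1563252_at (-0.33 to 0.07), ERBB4 233494_at (-0.29 to 0.49) and 233498_at (-0.22 to 0.11), HBEGF 203821_at (-0.08 to 0.51) and 244857_at (-0.06 to 0.02) and TGFA 205016_at (-0.51 to 0.56). It turned for NRG1 206237_s_at (-0.52 to 0.23), 206343_s_at (-1.25 to 0.59), 208241_at (-0.03 to 0.17) and 208231_at (-0.12 to 0.02). The array set fits and within-set values rest on sets read from the data, and the within-set values were added after seeing the data. Member probe sets near the negative controls have differences limited by background. With 3 arrays a group, intervals as wide as that of BTC leave both a large rise and a fall possible.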
